A study of Mus musculus with 72 samples.

Results

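Testis RNA from F1 males killed at 39 weeks of age was profiled by RNA-Seq in 10 of the 72 libraries of a mouse study of conception by in vitro fertilization (IVF). The libraries were chosen as all those of the 39-week testis count table, 4 from naturally conceived males (naturals) and 6 from IVF-conceived males. All males came from CF-1 females crossed with SJL/B6 males heterozygous for a GFP transgene. Naturals were conceived by mating and carried in vivo with no embryo transfer. For IVF, CF-1 females were superovulated, eggs were fertilized in vitro, embryos were cultured to the blastocyst stage in low oxygen, and blastocysts were transferred to pseudopregnant CF-1 females. Hormone stimulation, culture and transfer are therefore joined in the IVF group and cannot be told apart. Pups of both groups were delivered by C-section, later in gestation for IVF than for naturals, and fostered. The time of delivery is thus also joined with IVF. The comparison asks whether testis gene expression differs between the groups in later adulthood. RNA came from a cross section of testis, so that fewer cells of a type and less RNA per cell cannot be told apart. The 12-week F1 testis libraries (5 naturals and 5 IVF) and the 12-week testis libraries of F2 males (5 and 7) are used only to set the 39-week levels beside.

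The adult testis holds seminiferous tubules, in which spermatogonia divide, spermatocytes pass through meiosis, and spermatids replace their histones with protamines and elongate. Sertoli cells support the germ cells within the tubule, peritubular myoid cells surround it, and Leydig cells between tubules make testosterone. During meiosis the synaptonemal complex holds paired chromosomes together while breaks are repaired as crossovers, and the X chromosome is silenced in spermatocytes.

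Total counts ranged from 11438213 to 12705316 in naturals and from 14033176 to 23318391 in IVF testes, and every IVF library held more counts than every natural library (two-sided exact permutation test, p = 0.00952). Natural 1 and natural 2 differed by a biological coefficient of variation of 0.0297, where the other pairs of the same group differed by 0.127 to 0.308. Their halved counts differed by a chi-square per gene of 1.54, where the other pairs gave 5.53 to 31.8. The labels name them as separate samples, but whether they came from 1 animal or 1 RNA is not known. If so, the naturals hold 3 independent samples rather than 4, and the SDs, standard errors and p-values of the naturals understate the error. They were kept as 2 libraries, and results with their counts summed are given beside the calls. On the first principal component the naturals fell into 2 pairs, natural 1 and natural 2 at -58.9 and -59.7, and natural 3 and natural 4 at 45.7 and 41.8 beside IVF 4 at 44.7. The other 5 IVF libraries lay between, at -15.0 to 8.03. Expression also followed base composition by library. The correlation across genes of a library's deviation in log2 CPM (counts scaled to the size of the library) with GC content was 0.32 and 0.34 in natural 1 and natural 2, 0.02 and -0.01 in natural 3 and natural 4, and -0.03 to -0.31 in the IVF libraries. The labelled tissue carried its markers. Summed CPM of the elongating spermatid list was 24845 to 41097 in naturals and 25697 to 33763 in IVF testes, and that of the epididymal list 5.47 to 7.93 and 6.63 to 12.6.

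Of 20083 genes tested, 2 were differentially expressed (DEGs, edgeR's quasi-likelihood test at an adjusted p below 0.05, with more than a 1.5-fold difference), which is 0.00996% of the genes. Both were upregulated in IVF testes and none was downregulated. One was 4930401O12Rik, a long noncoding RNA gene of no known function, and the other was Smim10l1, which encodes a small integral membrane protein. At an unadjusted p under 0.05, 1063 genes were higher (5.29% of those tested) and 1038 lower (5.17%). The DESeq2 Wald test at the same limits called 88 genes (0.547% of 16083), 58 higher (0.361%) and 30 lower (0.187%). The plot of all genes shows 4930401O12Rik with the smallest p.

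**Figure D1:**
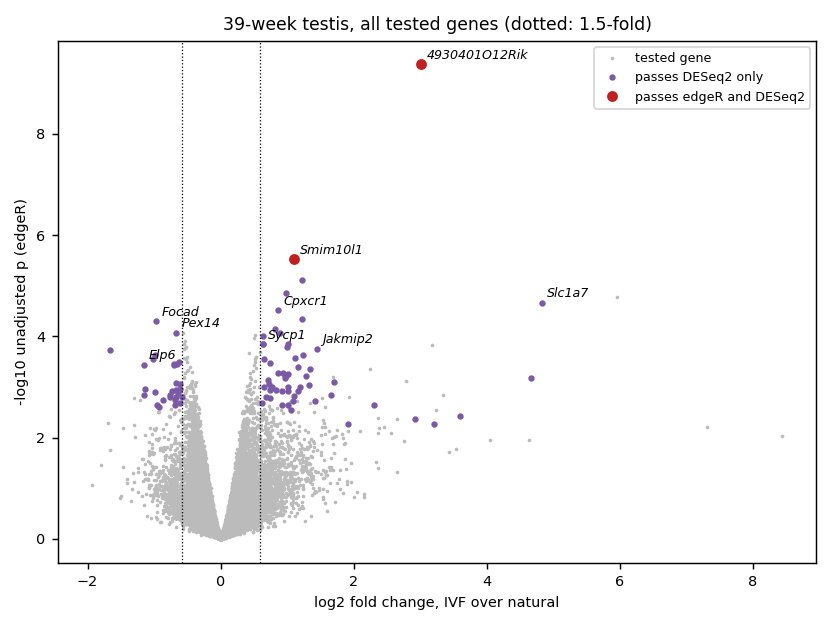
Each point is 1 of 20083 tested genes, with the log2 fold change of IVF over natural on the x axis and -log10 of the unadjusted edgeR p on the y axis; dotted lines mark 1.5-fold. 4930401O12Rik (red, log2 fold change 3.01) and Smim10l1 (red, 1.10) passed edgeR and DESeq2, and purple genes passed DESeq2 only.

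4930401O12Rik lies on the minus strand at chr13:31213410-31241086 (mm10). Its level was 2.10, 2.27, 1.82 and 2.67 CPM in the 4 naturals and 12.2 CPM at the lowest, 18.48 at the median and 20.3 at the highest in the 6 IVF testes. The groups were far from overlapping, and the lowest IVF library was IVF 4. Naturals averaged 2.21 ± 0.354 CPM (SD, n = 4) and IVF testes 17.9 ± 2.97 CPM (SD, n = 6). The log2 fold change was 3.01 (standard error 0.20; edgeR quasi-likelihood test, adjusted p = 8.48e-06). It passed with natural 1 and natural 2 summed (adjusted p = 6.15e-05) and with the GC trend of each library removed (log2 fold change 2.84, adjusted p = 2.62e-05). Of 5 other tested genes within 500 kb, none had groups apart, and their adjusted p ranged from 0.588 to 0.984.

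The same RNA was at 1 of 2 levels across all 32 adult testis libraries of the F1 and F2 generations, with nothing between 2.67 and 12.2 CPM. The low level, 1.53 to 2.67 CPM, was found in 7 libraries, namely 4 of 4 naturals at 39 weeks, 1 of 5 IVF testes at 12 weeks (IVF 2, at 2.23 CPM) and 2 of 5 F2 testes from natural sires (1.53 and 2.38 CPM). The high level was found in 6 of 6 IVF testes at 39 weeks, 5 of 5 naturals at 12 weeks, 4 of 5 IVF testes at 12 weeks, 3 of 5 F2 testes from natural sires and 7 of 7 F2 testes from IVF sires. The low level thus occurred in both conception groups over the series, and at 39 weeks in every natural and no IVF testis. Since each 39-week group lay at 1 level, the standard error and p-values above measure the spread within a level. They do not measure how often males of a group are at either level, which rests on 4 naturals and 6 IVF testes. The 3 tables were normalized separately, and no test was made between them.

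Smim10l1 spans chr6:133099150-133112089 on the plus strand. It was at 16.6, 19.8, 21.7 and 13.6 CPM in naturals and from 33.7 to 43.3 CPM (median 38.0) in IVF testes. No natural library reached the lowest IVF library. Naturals averaged 17.9 ± 3.58 CPM (SD, n = 4) and IVF testes 38.6 ± 3.92 CPM (SD, n = 6). The log2 fold change was 1.10 (standard error 0.15; edgeR adjusted p = 0.0301). The log2 fold change was 1.10 (adjusted p = 0.102) with natural 1 and natural 2 summed and 0.90 (adjusted p = 0.117) with the GC trend removed, and leaving out any library other than natural 3 or natural 4 gave 0.0544 to 0.191. At 12 weeks the level was 30.7 to 53.8 CPM over both groups, as in 39-week IVF testes, and in F2 testes it was 17.8 to 23.3 CPM, as in 39-week naturals. The F2 testes were also taken at 12 weeks, so the level differed between separately normalized tables of the same age. No test was made between them.

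The 250 bases before the RefSeq start of each DEG (GRCm38.p6, the mm10 build) are shown because only these genes passed the test. CG dinucleotides are in capitals. The window is chr13:31241087-31241336, minus strand, for 4930401O12Rik and chr6:133104989-133105238, plus strand, for Smim10l1, where it lies inside the span that the annotation gives the gene.
4930401O12Rik: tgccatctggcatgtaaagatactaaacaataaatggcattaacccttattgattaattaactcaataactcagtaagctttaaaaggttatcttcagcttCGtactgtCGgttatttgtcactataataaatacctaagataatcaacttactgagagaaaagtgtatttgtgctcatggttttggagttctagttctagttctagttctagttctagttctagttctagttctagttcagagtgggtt
Smim10l1: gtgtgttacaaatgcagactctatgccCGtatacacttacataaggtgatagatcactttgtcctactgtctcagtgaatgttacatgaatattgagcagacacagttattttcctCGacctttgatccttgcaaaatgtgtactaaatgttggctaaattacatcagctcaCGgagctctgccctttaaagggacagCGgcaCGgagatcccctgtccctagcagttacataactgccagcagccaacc
The 4930401O12Rik window held 33.2% GC and 2 CG dinucleotides, and 3.18% of 32851 windows of the same length in the table had a lower GC content. Near its 3′ end it holds a tandem run of 8 copies of the 6 bases GTTCTA, and a run as long on either strand was found in 1 window of the table, this one. The Smim10l1 window held 44.4% GC and 5 CG, where the median window held 52.4% and 6. Neither held TATAAA or CCAAT on either strand, which 12.4% and 33.9% of all windows did.

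Among genes with named symbols, those nearest to the threshold were taken as the 10 in each direction of smallest p. Each had a change over 1.5-fold and groups that do not overlap. Such separation was seen in 353 genes higher in IVF testes (1.76% of those tested) and 313 lower (1.56%). Since the rule used these values, they are given as a description. The limit to named symbols left out LOC108167731 (edgeR adjusted p = 0.0522). Of the 10 higher genes, Smim10l1 passed the test and the other 9 had adjusted p from 0.0724 to 0.163. Of the 10 lower genes none passed, with adjusted p from 0.110 to 0.201.

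Among the higher genes, Sycp1 encodes the transverse filaments of the synaptonemal complex. Its level was 92.5, 70.2, 82.3 and 66.5 CPM in naturals and 104 to 132 CPM (median 123.5) in IVF testes (log2 fold change 0.63, standard error 0.12, edgeR adjusted p = 0.130). With the GC trend removed the log2 fold change was 0.21, and those of Cpxcr1 and Abhd17b were 0.51 (0.86 before) and 0.29 (0.60 before). Without natural 1 and natural 2 they were 0.69 for Sycp1, 0.73 for Cpxcr1 and 0.44 for Abhd17b. Ms4a5, of the MS4A family of membrane proteins, was at 67.1 to 90.8 CPM in naturals and 113 to 139 CPM in IVF testes. Cpxcr1, an X-linked gene, was at 13.4 to 22.2 and 29.7 to 34.5 CPM, and Abhd17b, which encodes a depalmitoylating enzyme, at 49.4 to 70.4 and 76.2 to 94.4 CPM. Adamts9, a secreted metalloprotease that cleaves proteoglycans, was at 0.820 to 3.48 and 5.05 to 6.297 CPM. Jakmip2 was at 1.22 to 2.19 and 3.06 to 7.09 CPM, with a log2 fold change of 1.44. The noncoding RNA of the Rosa26 locus, Gt(ROSA)26Sor, was at 3.31 to 6.39 CPM in naturals and 7.87 to 13.8 CPM in IVF testes. Nrg3os, an antisense transcript of Nrg3 whose reads were not told apart here by strand, was at 1.31 to 1.66 and 2.63 to 4.13 CPM.

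Slc1a7, a glutamate transporter, had the largest fitted change of the named genes (log2 fold change 4.82, standard error 0.77, edgeR adjusted p = 0.0724). It rested on 4, 0, 0 and 3 counts in the naturals, so that the size of the change is poorly known, against 1.35 to 8.31 CPM in IVF testes. At 12 weeks it ran from 0 to 5.54 CPM within naturals and from 0 to 6.75 CPM within IVF testes. Its level therefore varied as widely among males of 1 group at 12 weeks as between the groups at 39 weeks.

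Among the lower genes, Focad was at 10.3, 13.0, 10.4 and 12.8 CPM in naturals and 5.10 to 7.33 CPM (median 5.73) in IVF testes (log2 fold change -0.96, standard error 0.17, edgeR adjusted p = 0.110). Pex14, part of the docking complex that brings enzymes into peroxisomes, was at 54.2, 61.0, 39.1 and 53.6 CPM in naturals and 31.2 to 34.2 CPM (median 32.4) in IVF testes (log2 fold change -0.68, standard error 0.12, edgeR adjusted p = 0.130). The IVF values were tight and the spread lay among the naturals. Ttc22, a tetratricopeptide repeat gene, was at 8.48 to 13.1 and 3.58 to 6.74 CPM, and at 12 weeks it was below 1 CPM in 3 libraries, 1 natural and 2 IVF. Elp6, a subunit of the Elongator complex that modifies tRNA, was at 3.98 to 6.29 and 1.72 to 3.26 CPM. Rpl27, of the large ribosomal subunit, was at 34.8 to 48.5 and 18.8 to 33.2 CPM and is uncertain, because processed copies of ribosomal protein genes can share its reads. Drap1, a repressor of transcription by RNA polymerase II, was at 344.2 to 592.9 and 241.0 to 328.6 CPM (log2 fold change -0.66, and -0.29 without natural 1 and natural 2). Commd9, Gpatch3, Zbtb42 and Fuk, which encodes fucokinase, had log2 fold changes of -0.71, -0.63, -0.61 and -0.61.

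**Figure D2:**
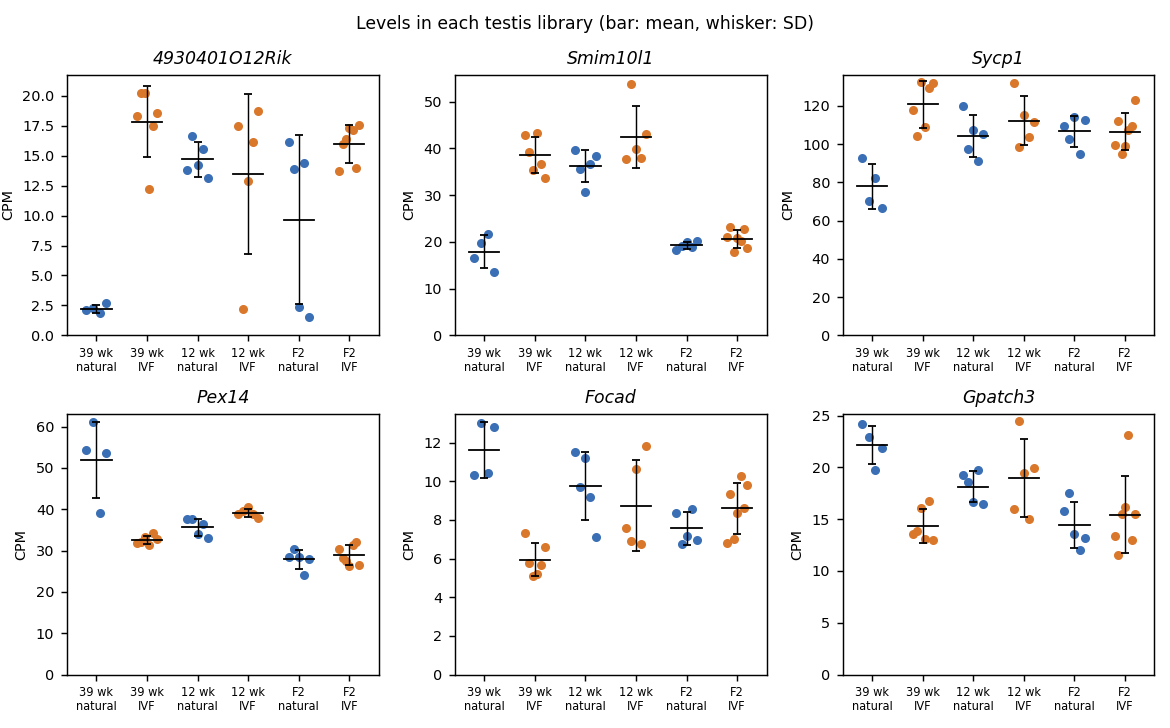
Each point is the CPM (y axis) of 1 library, blue for naturals and orange for IVF, at 39 weeks, at 12 weeks and in F2 testes, with the mean and SD of each group. At 39 weeks the naturals stand apart from the IVF libraries in all 6 genes, which was a condition for choosing Sycp1, Pex14, Focad and Gpatch3. 4930401O12Rik is at a low or a high level in single libraries of the other groups.

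The 39-week medians were set beside the other testis tables as a description. Of the 666 genes whose groups were apart (3.32% of those tested), the median level of the 10 libraries at 12 weeks lay nearer the 39-week IVF median for 462 (69.4%). Over all 20083 genes that share was 61.3%. For F2 testes the shares were 78.8% and 62.3%. Abhd17b is an example, at 49.4, 52.2, 55.6 and 70.4 CPM in 39-week naturals, 84.3 to 102.8 CPM in all libraries at 12 weeks and 81.2 to 104.6 CPM in F2 testes. The 666 genes were picked for groups that were apart, the natural median rests on 4 libraries of which a pair was nearly alike, and the tables differ in normalization and in GC trend. The part of these in the shares was not tested.

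The 12-week and 39-week libraries are in separate count tables, so age and table cannot be told apart. The effect of conception differed between them for 4 of 21513 genes (edgeR test of the conception by age term). For 3 genes the effect was higher at 39 weeks (0.0139%) and for 1 it was lower (0.00465%). These were 4930401O12Rik (difference in log2 fold change 3.13, standard error 0.49), LOC108167731 (1.26, 0.22), Abhd17b (0.72, 0.13) and Pex14 (-0.81, 0.14), each with an edgeR adjusted p of 0.0442. At 12 weeks alone their log2 fold changes were -0.12, -0.04, -0.12 and 0.13. LOC108167731 is an uncharacterized gene, at 4.62 to 5.14 CPM in 39-week naturals and 8.54 to 13.8 CPM in IVF testes. Its log2 fold change at 39 weeks was 1.22 (edgeR adjusted p = 0.0522). None of the 4 passed with natural 1 and natural 2 summed (adjusted p = 0.152 for each), where the differences were 3.13, 1.25, 0.67 and -0.76. With the GC trend removed, 3 of them had a value and none passed, with differences of 2.92 for 4930401O12Rik, -0.74 for Pex14 and 0.35 for Abhd17b.

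Lists of genes for cell types and functions of the testis were followed through the same fit. The 29 lists held 332 tested genes, of which none was a DEG. DESeq2 called 5 of them (Sycp1, 4930447C04Rik, Dazl, Cldn5 and Igf1), where over all genes it called 88 of 16083 (0.547%). Groups were apart for 12 higher and 3 lower, 4.52% where all genes gave 3.32%, and an unadjusted p under 0.05 was reached by 24 higher and 16 lower, 12.0% where all genes gave 10.5%. The median log2 fold change of all tested genes was 0.0051, and 50.7% of them were above 0.

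**Figure D3:**
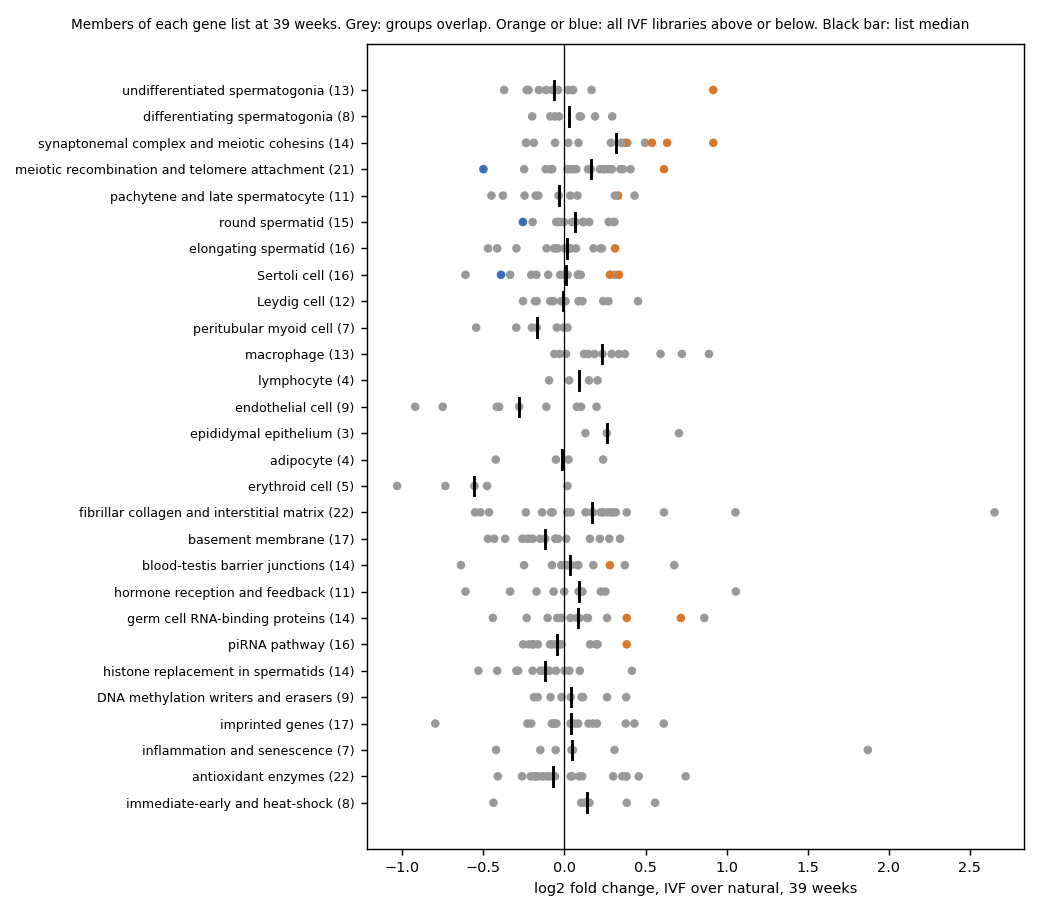
For all but 1 of the lists, each point is the log2 fold change of IVF over natural (x axis) of 1 tested member of the list named at the left, with the number tested in brackets, the list median as a black bar, and genes whose groups did not overlap in orange (higher) or blue (lower). Medians ran from -0.55 for erythroid genes to 0.32 for the synaptonemal complex, and no member was a DEG.

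Meiotic prophase genes held the highest list median. Of 14 synaptonemal complex and meiotic cohesin genes, 10 had log2 fold changes above 0 (median 0.32). At an unadjusted p under 0.05, 6 of the 14 were higher, where 5.29% of all genes were. Groups were apart for 4, all higher (Sycp1, Sycp3, Hormad1 and 4930447C04Rik), where 1.76% of all genes were apart and higher. None was a DEG. 4930447C04Rik, known as Six6os1 and part of the central element of the complex, was at 3.19, 4.79, 7.96 and 6.96 CPM in naturals and 8.99 to 12.3 CPM in IVF testes (log2 fold change 0.92, standard error 0.23, edgeR adjusted p = 0.201). Hormad1, a protein of unsynapsed chromosome axes, was at 38.0, 31.0, 42.8 and 53.2 CPM and at 54.9 to 65.1 CPM. Sycp3, of the lateral elements, was at 54.1, 51.7, 51.9 and 38.7 CPM and at 55.6 to 67.8 CPM (log2 fold change 0.37, standard error 0.12, edgeR adjusted p = 0.303). Sycp2 and Smc1b overlapped between the groups, with log2 fold changes of 0.39 and 0.29. The summed level of the list was 1729 to 1920 CPM in naturals and 1788 to 1951 CPM in IVF testes, and so overlapped. The median GC content of these 14 genes was 40.3%, where that of all tested genes was 49.5%, and with the GC trend removed their median log2 fold change was -0.01, with 7 above 0 and 7 below. The log2 fold change was then 0.54 for 4930447C04Rik, 0.18 for Hormad1, -0.07 for Sycp3, and 0.04 for both Sycp2 and Smc1b. Without natural 1 and natural 2, and with no GC correction, the list median was 0.27. In that fit the log2 fold change was 0.53 for 4930447C04Rik, 0.31 for Hormad1, 0.49 for Sycp3, 0.20 for Sycp2 and 0.23 for Smc1b.

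In the list of recombination and telomere attachment, 16 of 21 genes lay above 0 (median 0.16, 0.02 with the GC trend removed and -0.04 without natural 1 and natural 2). Tex11, an X-linked gene needed for crossovers, was at 5.20, 4.45, 5.22 and 5.18 CPM in naturals and 6.13 to 9.39 CPM in IVF testes (log2 fold change 0.61, standard error 0.18, edgeR adjusted p = 0.278). Msh5, a MutS homologue that stabilizes crossover intermediates, went the other way, at 26.4, 25.7, 26.3 and 26.8 CPM in naturals and 15.9 to 23.6 CPM in IVF testes (-0.50, 0.14, adjusted p = 0.252). Each had groups apart and neither passed the test, and with the GC trend removed Tex11 was at 0.37.

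Germ cell RNA-binding proteins lay above 0 in 9 of 14 genes (median 0.09). Dazl, which promotes translation in germ cells, was at 45.1, 40.4, 67.8 and 73.6 CPM in naturals and 77.0 to 104.9 CPM in IVF testes (log2 fold change 0.72, standard error 0.17, edgeR adjusted p = 0.200), while at 12 weeks it was at 105.0 to 120.1 CPM in both groups. Natural 1 and natural 2 were the lowest libraries. The log2 fold change was 0.41 with the GC trend removed and 0.39 without natural 1 and natural 2. Ddx4, the germ cell helicase, was at 255.0, 255.1, 304.7 and 322.6 CPM and at 346.3 to 403.4 CPM (log2 fold change 0.38, edgeR adjusted p = 0.239, and 0.24 without natural 1 and natural 2). In the piRNA list, which also holds Ddx4, 12 of 16 genes lay below 0 (median -0.05).

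Medians of the spermatogonial and late germ cell lists were -0.07 for undifferentiated spermatogonia (13 genes), 0.03 for differentiating spermatogonia (8), -0.04 for pachytene and late spermatocytes (11), 0.07 for round spermatids (15) and 0.02 for elongating spermatids (16). The last depended on the naturals used, at 0.34 without natural 1 and natural 2 and -0.25 without natural 3, natural 4 and IVF 4. Eomes, a marker of a subset of stem spermatogonia, had groups apart at low levels, 0.485 to 0.697 CPM in naturals and 0.898 to 1.47 CPM in IVF testes (log2 fold change 0.92, standard error 0.37, edgeR adjusted p = 0.417). Pgk2, a glycolytic enzyme of late spermatocytes and spermatids, was at 641.2 to 843.6 and 847.0 to 1042 CPM. Rfx2, a transcription factor of spermatids, was at 466.5 to 495.4 and 329.9 to 449.0 CPM. Among histone replacement genes 10 of 14 lay below 0 (median -0.12), but the median was 0.14 without natural 1 and natural 2. Prm1, a protamine, was at 5035, 5148, 2921 and 2501 CPM in naturals and 2245 to 3459 CPM in IVF testes (log2 fold change -0.41, adjusted p = 0.477), and Tnp2, a transition protein, showed the same split of the naturals, at 7432, 7671, 4603 and 3539 CPM. Without natural 1 and natural 2 their log2 fold changes were 0.10 and 0.21.

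Somatic cell lists showed no DEG. Sertoli cell genes were 8 above and 8 below 0 (median 0.01). Ctsl, a protease secreted by Sertoli cells, was at 184.1 to 221.6 CPM in naturals and 233.0 to 285.9 CPM in IVF testes, and Sox8, a transcription factor, at 17.3 to 24.05 and 13.7 to 16.8 CPM. Cldn11, a tight junction protein of the blood-testis barrier, was at 51.0 to 62.3 and 63.7 to 81.5 CPM. Leydig cell genes were 6 above and 6 below 0 (median -0.01). Star, which moves cholesterol into mitochondria, was at 70.4 to 104.0 CPM in naturals and 59.2 to 173.2 CPM in IVF testes, and Insl3 at 65.0 to 129.8 and 53.6 to 152.3 CPM. For both genes the IVF range held the natural range, and without natural 1 and natural 2 their log2 fold changes went from 0.27 and -0.26 to 0.04 and 0.01. Of 7 peritubular myoid genes 6 lay below 0 (median -0.17), with Acta2 at 35.9 to 50.4 and 32.7 to 45.5 CPM.

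Endothelial and erythroid genes were mostly below 0, 6 of 9 (median -0.28) and 4 of 5 (median -0.55). Cldn5, an endothelial tight junction protein, was at 14.8, 18.1, 11.3 and 7.93 CPM in naturals and 3.82 to 8.76 CPM in IVF testes (log2 fold change -0.92, standard error 0.25, edgeR adjusted p = 0.246), and its log2 fold change was -0.49 without natural 1 and natural 2. The endothelial median ran from -0.49 to -0.09 on leaving out 1 library, without natural 4 and natural 3 in turn. The globin gene Hbb-bt was at 4.37 to 7.30 and 1.38 to 5.87 CPM, and reads may be shared with its near-identical neighbour. Macrophage genes were mostly above 0, 11 of 13 (median 0.23), none of them at an unadjusted p under 0.05. The median was 0.27 with the GC trend removed and 0.10 without natural 1 and natural 2. C1qc was at 5.26 to 8.19 and 3.15 to 11.5 CPM and Cd163 at 0.547 to 1.83 and 1.18 to 3.20 CPM. The macrophage genes summed to 370 to 726 CPM in naturals and 462 to 617 CPM in IVF testes. Aif1 made up most of the summed level of this list, at 251.6 to 648.1 CPM in naturals, with natural 1 and natural 2 the highest. The other 12 genes summed to 77.2 to 118.4 CPM in naturals and 84.0 to 131.4 CPM in IVF testes. Of 12 lymphocyte genes 4 passed the filter on low counts.

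The extracellular matrix was of interest to the study. It reports stronger collagen staining in IVF testes at 39 weeks, and higher Col1a1 and Vcam1 by RT-qPCR and immunoblot. Of 22 fibrillar collagen and interstitial matrix genes 15 lay above 0 (median 0.17), and of 17 basement membrane genes 12 lay below 0 (median -0.12). Natural 3 set the direction of the latter, whose median was 0.19 without it, and the former was at 0.02 without natural 4 and 0.31 without natural 3. Col1a1, the main chain of type I collagen, was at 18.1, 20.05, 26.8 and 8.58 CPM in naturals and 9.04 to 14.7 CPM in IVF testes (log2 fold change -0.55, standard error 0.25, edgeR adjusted p = 0.470). The naturals spanned the IVF range, and the direction was the reverse of that in the study's own assays of this gene. Vcam1, a cell adhesion molecule, was at 40.6, 31.8, 66.5 and 70.0 CPM and at 59.8 to 105.3 CPM (log2 fold change 0.61, standard error 0.22, edgeR adjusted p = 0.344). Natural 1 and natural 2 were the lowest, and without them the log2 fold change was 0.22. Tgfb1, the growth factor, was at 12.6 to 16.8 and 9.02 to 13.2 CPM (-0.52, 0.16, adjusted p = 0.284), and Lamb2, a laminin chain, at 56.1 to 71.1 and 38.7 to 56.9 CPM (-0.43, 0.13, adjusted p = 0.282).

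Of 11 genes of hormone reception and feedback, 6 lay above 0 (median 0.09, and -0.34 without natural 1 and natural 2). Igf1, a growth factor made by Sertoli and Leydig cells, was at 2.28, 2.27, 4.89 and 2.43 CPM in naturals and 3.59 to 7.90 CPM in IVF testes (log2 fold change 1.06, standard error 0.29, edgeR adjusted p = 0.251), with natural 3 above the lowest IVF library. Cldn3, a Sertoli claudin under androgen control, was at 156.5, 170.8, 92.6 and 58.9 CPM in naturals and 55.4 to 100.4 CPM in IVF testes (log2 fold change -0.64, standard error 0.26, edgeR adjusted p = 0.429), and its log2 fold change was 0.02 without natural 1 and natural 2.

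Genes that the study tied to regions of altered sperm DNA methylation at this age numbered 9. They were picked from genes called in these same libraries, so their direction is not independent evidence, and all 9 are among the DESeq2 calls here. Of these, 8 were higher and 1, Ttc22, was lower (median log2 fold change 0.98), with edgeR adjusted p from 0.130 to 0.218. Besides Dazl, Sycp1 and Adamts9, the higher ones were Nedd9, a scaffold of focal adhesions (2.27 to 3.15 CPM in naturals and 4.28 to 5.91 CPM in IVF testes), Cd24a, a cell surface glycoprotein (2.91 to 4.28 and 6.10 to 15.7 CPM), and the noncoding 8430426J06Rik, Gm31447 and 1700019P21Rik. DNA methylation enzymes had a median of 0.04 over 9 genes, with Dnmt1 at 55.3 to 88.8 and 57.0 to 70.0 CPM. Imprinted genes had a median of 0.04 over 17, with Igf2 at 6.29 to 10.8 and 7.86 to 23.9 CPM and H19 at 1.82 to 3.31 and 1.42 to 2.37 CPM.

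IVF 2 carried the values of several stress genes. Timp1, an inhibitor of metalloproteases, was at 16.5 CPM in IVF 2 and 0.166 to 1.88 CPM in the other 9 libraries. Hmox1, which breaks down heme, was at 48.9 CPM in IVF 2 and 8.04 to 13.7 CPM elsewhere. The immediate-early gene Junb was at 18.4 CPM in IVF 2 and at most 7.87 CPM elsewhere. Junb and Timp1 were among genes named after their values were seen. Without IVF 2 the log2 fold changes of Timp1 and Hmox1 went from 2.65 and 0.75 to 0.76 and 0.04. Antioxidant enzymes as a list had 10 of 22 genes above 0 (median -0.07), and Cdkn2a, a marker of senescence, was at 3.15 to 5.49 CPM in naturals and 1.64 to 4.92 CPM in IVF testes.

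Fold changes followed the base composition of genes across the whole table. Genes of 35% to 40% GC had a median log2 fold change of 0.27 (1000 genes), and those of 60% to 65% GC one of -0.23 (662 genes). The median GC content was 43.1% in genes higher at an unadjusted p under 0.05 and 55.3% in those lower. The correlation of log2 fold change with GC content across genes was -0.42 (genes are not independent replicates). Without natural 1 and natural 2 this correlation was -0.13, so its size rested largely on that pair. The part of base composition in the differences between the groups was not tested beyond the values with its trend removed.

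**Figure D4:**
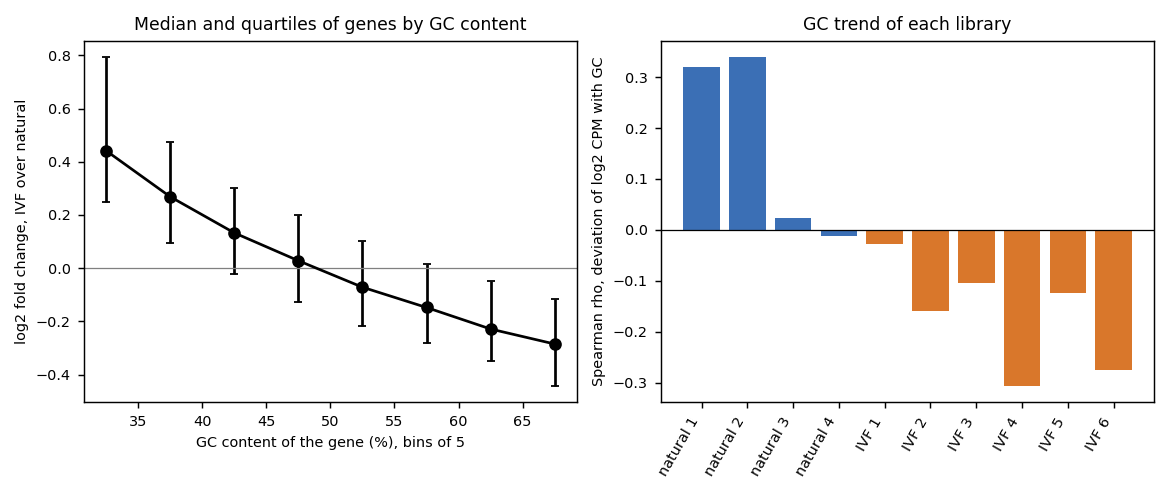
The left panel plots the median and quartiles of the log2 fold change of IVF over natural (y axis) in bins of gene GC content (x axis), and the right panel the Spearman correlation with GC content of each library's deviation in log2 CPM. The medians fall from 0.44 in the lowest bin to -0.29 in the highest, and natural 1 and natural 2 have the highest correlations, 0.32 and 0.34.

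Of 705 X-linked genes tested, 72.9% had log2 fold changes above 0, and their median was 0.20, where the autosomes gave medians of -0.06 to 0.08. Groups were apart for 31 X-linked genes that were higher (4.40%, where all genes gave 1.76%). Of the 705, 1 was apart and lower, where 1.56% of all genes were, and none was a DEG. X-linked genes had a median GC content of 45.0%, the lowest of the chromosomes, and with the GC trend removed their median was 0.10 (676 genes), where all genes gave -0.02. Of 3555 long noncoding RNA genes 60.8% lay above 0 (median 0.10, and 0.06 with the GC trend removed). Of them 65 were apart and higher, 1.83% where all genes gave 1.76%. Another 12 of the 3555 were apart and lower, where all genes gave 1.56%.

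The number of DEGs depended on which naturals were used. It was 1 with natural 1 and natural 2 summed, 5 without natural 3, 11 without natural 4 and 17 without natural 1 and natural 2. Without natural 3, natural 4 and IVF 4 it was 1135, and the naturals were then natural 1 and natural 2 alone, the pair that differed by a coefficient of variation of 0.0297. Under the alternatives plotted, 4930401O12Rik passed each time.

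**Figure D5:**
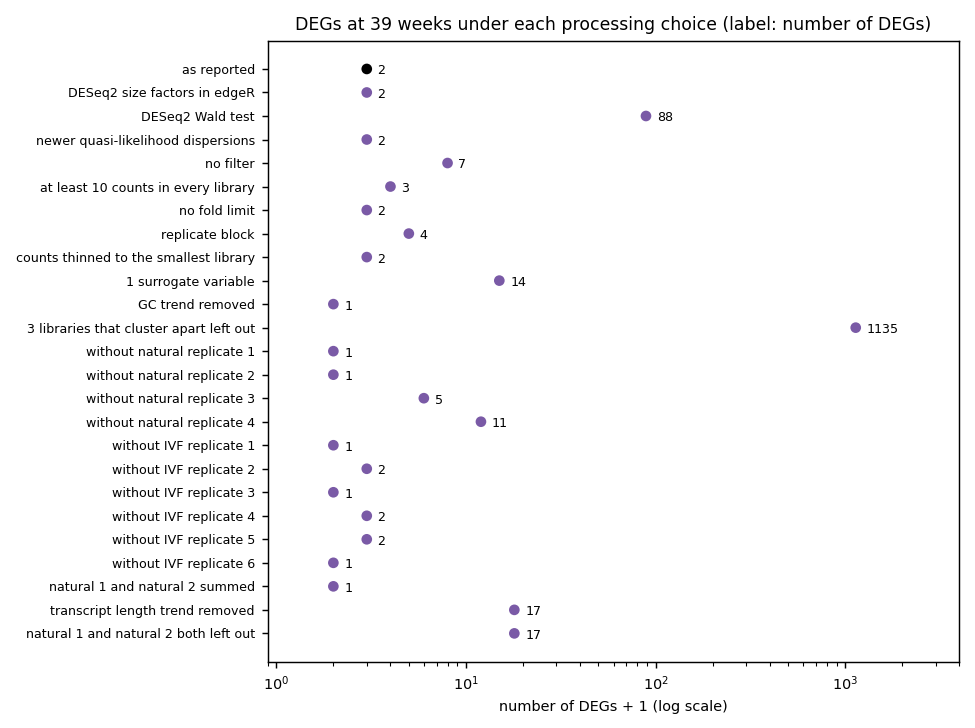
Each point is the number of DEGs plus 1 (x axis, log scale) under the processing choice named at the left, with the number of DEGs printed beside it and the reported count of 2 in black. Most choices gave 1 to 17 DEGs, the DESeq2 Wald test 88, and leaving out natural 3, natural 4 and IVF 4 gave 1135.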

How the data were processed

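The members and the gene lists were chosen with earlier results of these data known. The authors made stranded mRNA libraries from testis RNA. Per the labels and the submitters' processing notes, reads were trimmed (Trimmomatic 0.32), mapped (STAR 2.3.0e) to mm10 and counted per gene (featureCounts 1.5.0). The values are counts as deposited, whole numbers by gene symbol without normalization. Between 65.2% and 71.2% of low counts were even, so each mate of a pair appears to be counted, and counts are fewer independent fragments. Total counts set the precision, and 3 counts are 0.129 to 0.262 CPM. Groups were taken from the labels, 4 naturals and 6 IVF, where the methods give another number. No label ties libraries to litters, and p-values measure the spread between these libraries.

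Genes with low counts were filtered (filterByExpr) and counts normalized by TMM in edgeR 4.0.16 (R 4.3.3), followed by a robust quasi-likelihood fit, a two-sided test and Benjamini-Hochberg adjustment over all genes tested. The same test was run for conception by age with the 12-week table. Some genes are not reported here. Test scripts were checked on simulated data. DESeq2 1.42.0, sva 3.50.0, other filters, thinned counts, GC and length trends and left-out libraries were alternatives. Summing or leaving out natural 1 and natural 2, removing the length trend, and for the conception by age term the GC trend, were added after seeing the data. Named genes were the DEGs, the 10 genes in each direction of smallest p with groups apart, up to 5 of each list, those of the study's text, and genes passing the conception by age test. GC content came from GENCODE M21 for 17576 tested genes (87.5%), and coordinates and promoter windows from RefSeq GRCm38.p6, by symbol for 32501 and by synonym for 964 of 35976 genes.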

Additional observations from a re-analysis of the deposited data

Results flagged for a closer look

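Outlying libraries were looked for in 109 measures, namely most genes named in the text and others of the lists, the list means of log2 CPM and the total counts, in each group, with Dixon's ratio of the gap to the nearest library over the whole range of the group. Chance alone picks about 1 in 20 groups of independent libraries, and 18 of 218 were picked. Natural 1 and natural 2 were nearly alike and some measures share genes, so these shares cannot be compared. IVF 4 was low for 4930401O12Rik (ratio 0.705), low for Tnp2 (0.637), low for the synaptonemal complex list (0.736), low for the elongating spermatid list (0.674) and low for the histone replacement list (0.645). IVF 2 was high for the germ cell RNA-binding list (0.723), the inflammation and senescence list (0.766) and the immediate-early and heat-shock list (0.700), high for Hmox1 (0.707) and low for C1qc (0.795). IVF 5 was high for the endothelial list (0.638). Natural 4 was low for Sycp3 (0.862) and high for the pachytene list (0.877). Natural 2 was low for Tex11 (0.945) and for Hmox1 (0.877). Natural 1 was high for differentiating spermatogonia (0.910), and natural 3 was high for Igf1 (0.912) and for the DNA methylation enzymes (0.858).

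The effect of conception differed between 12 and 39 weeks, by a test of the difference, for 4930401O12Rik (difference in log2 fold change 3.13), LOC108167731 (1.26), Pex14 (-0.81) and Abhd17b (0.72). None of these passed with natural 1 and natural 2 summed (edgeR adjusted p = 0.152 for each). The ages are in separate count tables, so age and table cannot be told apart. For 4930401O12Rik the 12-week IVF testes include 1 library at the low level.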

How the results depend on the processing

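The number of DEGs was 88 by the DESeq2 Wald test, 7 with no filter, 4 with the replicate block, 14 with 1 surrogate variable, 1 with the GC trend removed and 1135 without natural 3, natural 4 and IVF 4. Leaving out a library gave 1 to 11, with 5 without natural 3, 11 without natural 4 and 1 without natural 1, natural 2, IVF 1, IVF 3 or IVF 6. Of the choices made after seeing the data, summing natural 1 and natural 2 gave 1, removing the transcript length trend 17 and leaving out natural 1 and natural 2 also 17. 4930401O12Rik passed under all of these. The conception by age test, with 4 genes, gave 0 with no filter, 0 with the replicate block, 0 with the GC trend removed, 0 with natural 1 and natural 2 summed, and 2050 without natural 3, natural 4 and IVF 4. Leaving out a library gave 0 to 425, with 425 without natural 3, 57 without natural 4, 2 without IVF 4 and 0 without each other library. Of 21513 genes in the edgeR test as reported, 2554 had an unadjusted p under 0.05. The cause of these shifts was not tested.

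The sign of the log2 fold change turned for genes that did not pass the test. Sycp3 was at -0.073 with the GC trend removed, and Dnmt1 at 0.020 without natural 3, natural 4 and IVF 4. Without natural 1 and natural 2, Cldn3 was at 0.017, Prm1 at 0.10, Insl3 at 0.0099 and Tnp2 at 0.21. List medians were mostly small and turned sign for 17 of 29 lists on leaving out 1 library, for 8 without natural 1 and natural 2, for 10 without natural 3, natural 4 and IVF 4, and for 3 with the GC trend removed.

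Replicate numbers shared between the groups were not taken as pairs. The correlations of same-numbered deviations were 0.18, -0.01, -0.23 and 0.30. Those of differently numbered libraries were not computed, so whether the numbers pair the libraries was not tested. With the replicate block, 4930401O12Rik passed (adjusted p = 0.00072) and Smim10l1 did not (0.112). With 4 naturals, of which a pair was nearly alike, and natural libraries shallower than every IVF library, small differences were poorly resolved and depth and group cannot be told apart. Counts thinned to the smallest library gave the same DEGs.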
